A study of Homo sapiens with 6 samples.

Results

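The genes described here are *MIA2*, *MIA3* and 8 genes of the COPII coat, taken by symbol from the authors' table of RNA-seq values in MDA-MB-231 cells, an established human triple-negative breast cancer line. All 10 symbols were found, each in 1 of 15917 rows. The cells carried a lentiviral hairpin and, per the study's methods, a luciferase label and puromycin selection. The 3 groups were 2 libraries with the control hairpin shCTRL (genotype label WT), 2 with shRBMS3-B3 (label RBMS3 KD1) and 2 with shRBMS3-C3 (label RBMS3 KD2), the last 4 being knockdown libraries of the RNA binding protein *RBMS3*. The labels call the libraries of a group biological replicates.

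The only measurement used is the mean normalized count of each gene, which is 1 value over libraries of control and knockdown cells together. It carries no replicate spread, the depth of the libraries is unknown, and which of the 6 libraries entered it is not named in the sources used here. The study's legend for this comparison gives duplicates of knockdown and of control cells, which is fewer knockdown libraries than the labels list. The remaining columns are the authors' own comparison of knockdown with control cells and were not used. No statement on the effect of *RBMS3* knockdown is therefore drawn from these data for any gene. Over all rows the mean normalized count ran from 26.7 to 859682 with a median of 364. *RBMS3* itself was at 272. The line's markers were checked by level. *VIM*, *CD44*, *EGFR*, *CAV1*, *AXL* and *MSN* were listed at 4947 to 69336, *CDH1* at 31.6 and *EPCAM* at 107, and *ESR1* and *PGR* have no row. *KRT8* and *ERBB2*, also placed among the markers thought low, were at 9979 and 342 per 1000 bases of transcript, above the 152 that is the median of coding genes. Of 3 markers of other lineages, *PTPRC* and *ALB* have no row and *GFAP* was at 199.

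COPII vesicles carry newly made proteins from the endoplasmic reticulum (ER) to the Golgi. The small GTPase SAR1 starts a coat on the ER membrane. SEC23 and SEC24 then form its inner layer, where SEC24 binds cargo and SEC23 stimulates GTP hydrolysis by SAR1, and SEC13 and SEC31 form the outer cage. MIA3, also known as TANGO1, and the products of *MIA2*, known as TALI and cTAGE5, are transmembrane proteins of ER exit sites. They act with the coat in the export of large cargo such as collagen or lipoprotein particles.

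The study asks how RBMS3 acts on transcripts with an AUA element in the 3′UTR. Its reporter assay used a site from *MIA2*, chosen by RBMS3 binding peaks in the 3′UTR, and its pooled guide library also targeted *MIA2*. By the study's account, the targets of that library were selected as genes bound by RBMS3 in the 3′UTR. They also had to be lower in mRNA and protein in knockdown cells, with no reduced transcription rate and a link to better survival. The 3′UTR sequences of the 10 genes were therefore searched for the AUA element. It reads A, G or T, then A or T, then ATA, then A or T, then A. All 6 matches of *MIA2* lie in 430 bases, and 5 lines show them, since the matches at bases 227 and 229 after the stop codon overlap. The single match of *SEC13* and the 4 of *SEC24D* are shown for contrast, because the former holds the polyadenylation signal AATAAA and the latter do not. Capitals mark the match and small letters are 10 flanking bases on each side, written 5′ to 3′ as DNA from GENCODE release 44 on GRCh38. In the line from base 227 only the first match is in capitals. The match from base 229, ATATAAA, begins inside it and ends in the small letters.

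*MIA2* from base 136 after the stop codon, chr14:39350390-39350416, plus strand: agtattttgtAAATAAAgatgatttaa

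*MIA2* from base 227, chr14:39350481-39350507, plus strand: taatccactaTTATATAaacaatagtg

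*MIA2* from base 250, chr14:39350504-39350530, plus strand: agtgggagttTTATATAtgtaatcttt

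*MIA2* from base 362, chr14:39350616-39350642, plus strand: ctttatgcttAAATAAAttatagttga

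*MIA2* from base 405, chr14:39350659-39350685, plus strand: gcattgataaTAATAAAatcagtagtt

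*SEC13* from base 308, chr3:10300937-10300963, minus strand: caaaggaactAAATAAAgtcatattgc

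*SEC24D* from base 161, chr4:118723338-118723364, minus strand: tggtgctcagGTATAAAgccaattaag

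*SEC24D* from base 313, chr4:118723186-118723212, minus strand: tatgctagacATATAAAttatttttca

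*SEC24D* from base 538, chr4:118722961-118722987, minus strand: tttttcataaTTATATAttgtgtatgt

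*SEC24D* from base 643, chr4:118722856-118722882, minus strand: gtttctacctGTATATAatggatgtta

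In MDA-MB-231 cells all 10 genes lay above the median mean normalized count of the table. *SEC13* was highest at 3358 and *MIA2* lowest at 561, which are percentiles 93.6 and 60.3 of all rows. Longer transcripts give more fragments, so these counts do not rank the genes by transcript abundance, and levels are given per length as well. Per 1000 bases of the representative transcript, the median of the 10 genes was 298, against 152 for the 12409 listed genes with a coding sequence, and 8 of the 10 were above this median. *MIA2* and *SEC24A* were below it. Per 1000 bases of coding sequence 6 of the 10 were above the median of all, and *MIA3* and *SEC24B* were then below it as well. The order of levels per length was *SEC13*, *SEC24C*, *SEC23B*, *SEC23A*, *SAR1A*, *SEC24D*, *SEC24B*, *MIA3*, *SEC24A* and *MIA2*. With 1 value per gene and no spread, which neighbours in this order differ could not be tested. The order also depends on the length that is used, as the plot of levels shows.

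**Figure D1:**
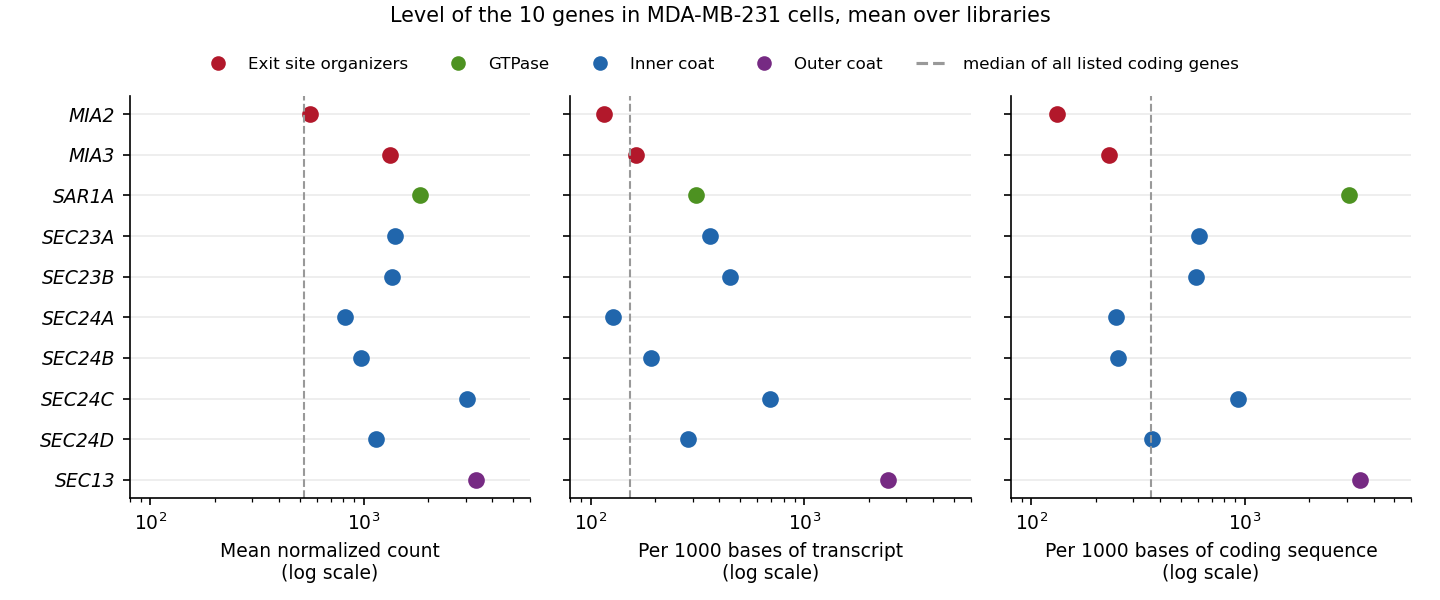
The authors' mean normalized count of each gene (left), the same value per 1000 bases of the representative transcript (middle) and per 1000 bases of its coding sequence (right), all on log axes. Each point is 1 value over libraries with no error, and the dashed line is the median of the 12409 listed coding genes. *SEC13* is highest in each panel and *MIA2* lowest, while *SAR1A* moves from 312 per 1000 bases of transcript to 3083 per 1000 bases of coding sequence.

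*MIA2* (ENSG00000150527) lies on the plus strand of chr14:39230231-39388513. Its mean normalized count was 561 and its level 115 per 1000 bases of transcript, at percentile 42.6 of coding genes. The representative transcript has 29 exons, 4869 bases and an open reading frame of 1412 residues. The gene makes products of very different length, and only 4 of its 15 protein-coding transcripts in GENCODE use the start codon of the 1412-residue form. The longest form that starts elsewhere has 809 residues and a transcript of 3695 bases, and with this length the level would be 152 per 1000 bases. The deposited value sums over isoforms, so which form the cells contain was not measured here.

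*MIA3* (ENSG00000154305), on the plus strand of chr1:222618097-222668007, had a mean normalized count of 1324 and 163 per 1000 bases of transcript, at percentile 51.8. Its representative transcript is the longest of the 10, with 8126 bases, 28 exons and 1907 residues. Next to *MIA2* it was 1.42 times as high per 1000 bases of transcript. Of its 3 protein-coding transcripts, 1 uses the start codon of the long form, and the others encode 1014 and 785 residues. With the 3045 bases of the 1014-residue transcript the level of *MIA3* would be 435 per 1000 bases. Of the summed level of both genes per transcript length, *MIA3* made up 58.6% and *MIA2* 41.4%. Per coding length the shares were 63.6% and 36.4%. The ratio and the shares hold for the representative transcripts only, since *MIA2* would be at 152 with its 3695-base transcript.

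The GTPase gene *SAR1A* (ENSG00000079332) lies on the minus strand of chr10:70147289-70170523. It had a mean normalized count of 1841 and 312 per 1000 bases of transcript, at percentile 69.2. The transcript encodes 198 residues in 597 coding bases and has a 3′UTR of 5187 bases, the longest of the 10. For this reason its place depends on the length chosen, from the fifth of the 10 per transcript length to the second per coding length. *SAR1B*, the paralog that encodes the other SAR1 GTPase, was at 495 by mean normalized count and 76.0 per 1000 bases. *SAR1A* was thus 4.11 times as high per transcript length and made up 80.4% of the summed level of the pair.

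The SEC23 genes were at close levels. *SEC23A* (ENSG00000100934), on the minus strand of chr14:39031919-39109646, had a mean normalized count of 1394 and 363 per 1000 bases of transcript. *SEC23B* (ENSG00000101310), on the plus strand of chr20:18507520-18561415, had 1359 and 449. The ratio of *SEC23B* to *SEC23A* was 1.24 per transcript length and 0.972 per coding length, so their order turned with the choice of length. The proteins are of nearly equal size, with 765 and 767 residues, and their coding sequences were 75.4% identical over 2297 aligned bases.

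Of the 4 cargo-binding SEC24 genes, *SEC24C* was highest. *SEC24C* (ENSG00000176986), on the plus strand of chr10:73744372-73772161, had a mean normalized count of 3052 and 687 per 1000 bases of transcript. *SEC24D* (ENSG00000150961), on the minus strand of chr4:118722823-118838683, followed with 1143 and 284. *SEC24B* (ENSG00000138802), on the plus strand of chr4:109433772-109540896, had 972 and 191. *SEC24A* (ENSG00000113615), on the plus strand of chr5:134648785-134727909, had 813 and 127. *SEC24C* was 2.41 times as high as *SEC24D* and 5.40 times as high as *SEC24A* per transcript length, and it made up 53.3% of the summed level of the 4 genes. Per coding length its share was 51.6%. The 4 genes fall into the pairs known from their proteins. Coding sequences were 64.5% identical between *SEC24A* and *SEC24B* and 64.2% between *SEC24C* and *SEC24D*, against 52.6% to 54.9% across the pairs. The gene with the higher level in each pair was *SEC24B* in the first and *SEC24C* in the second.

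*SEC13* (ENSG00000157020), on the minus strand of chr3:10293131-10321112, encodes a small beta-propeller protein that also serves in the nuclear pore and in the GATOR complex. Its mean normalized count of 3358 on a transcript of 1359 bases gave 2471 per 1000 bases, at percentile 96.4 of coding genes. This was 3.60 times the level of *SEC24C*, the next of the 10, and 21.5 times that of *MIA2*. *SEC31A*, which encodes the partner of SEC13 in the outer cage, had a similar mean normalized count of 3588 but a longer transcript, and its level of 835 per 1000 bases was 0.338 times that of *SEC13*. *SEC31B* was at 31.2.

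Other genes of the early secretory pathway were taken from lists fixed by name. Of 17 further genes listed for COPII and ER exit sites, 16 have a row, and *SEC16B* has none. One of the 16, *ALG2*, does not belong there by function. It encodes a mannosyltransferase of N-glycosylation, and the exit site protein known as ALG-2 is the product of *PDCD6*, which is also in the list. The median of the list was 308 per 1000 bases of transcript, and 381 for the 15 genes without *ALG2*, against 298 for the 10 genes. They ran from 31.2 for *SEC31B* to 1097 for *TFG*, which encodes a scaffold between ER exit sites and Golgi. The 16 cargo receptor and TMED genes had a median of 717, from *ERGIC2* at 100.5 to *ERGIC3* at 2656. The 11 genes of the COPI coat, which returns proteins to the ER, and its ARF GTPases had a median of 764, from *COPZ2* at 43.99 to *ARF1* at 4694. Of the cargo receptor genes 15 and of the COPI genes 10 were above the median of all coding genes, as were 11 of the 15 COPII and exit site genes without *ALG2*. These are descriptions over genes of different length, and no test was run on them.

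**Figure D2:**
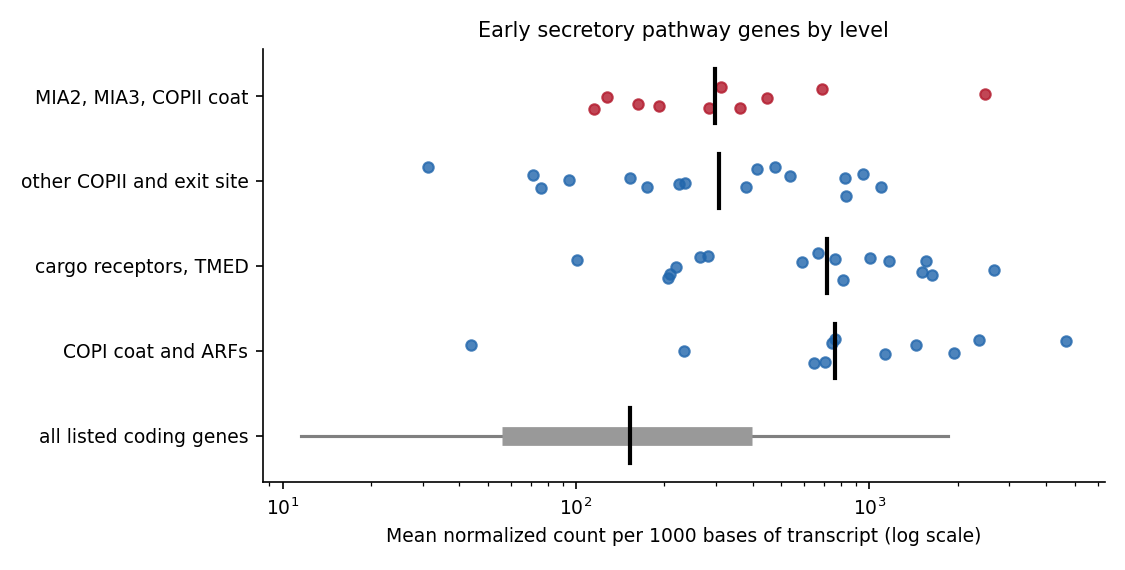
Mean normalized count per 1000 bases of transcript, on a log axis, of the 10 genes (red) and 3 further groups of the early secretory pathway (blue), 1 point per gene, with the median of each group as a black line. The bottom row gives all 12409 listed coding genes, with the middle 50% as a bar and 5% to 95% as a line. The medians of the 10 genes (298) and of the other COPII genes (308 as drawn, 381 without *ALG2*) lie below those of cargo receptors (717) and COPI (764).

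The 10 genes differed widely in the 3′UTR of the representative transcript. The 3′UTR was 5187 bases long in *SAR1A*, 2815 in *SEC24A*, 2388 in *MIA3*, 1320 in *SEC23A* and 1221 in *SEC24B*. It was 1066 bases long in *SEC24C*, 692 in *SEC24D*, 675 in *SEC23B*, 430 in *MIA2* and 330 in *SEC13*. The median of 1144 bases was near the 1378 of all 12350 listed genes with a 3′UTR. A+U content ranged from 49.3% in *SEC24C* and 53.6% in *SEC13* to 74.0% in *MIA2*, with a median of 67.9% against 57.9% over all listed genes, and 7 of the 10 were above that value.

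Every one of the 10 3′UTRs held at least 1 match to the AUA element. This is no mark of the group, since 84.8% of all listed genes with a 3′UTR held one too. The 10 genes had 56 matches in all, of which 13 were in *SAR1A*, 9 in *SEC24A*, 6 each in *MIA2* and *MIA3* and 5 each in *SEC23A* and *SEC24B*. *SEC23B* and *SEC24D* had 4 each, *SEC24C* had 3 and *SEC13* had 1. The element overlaps with the polyadenylation signal, as a base other than C followed by AATAAA is also a match. Of the 56 matches, 28 held AATAAA in this way, among them the single match of *SEC13* and 9 of 13 in *SAR1A*, while none of the 4 in *SEC24D* did. AAATAAA was the most frequent of the 11 forms found, with 19 occurrences. In 6 genes a match ended within 30 bases of the end of the transcript, where the polyadenylation signal is usually found, and in *SEC13*, *SEC24C* and *MIA2* that match held AATAAA. Only an AATAAA that lies wholly inside a match was counted as held. The match of *SEC23A* from base 1302, near the end of the transcript, partly overlaps an AATAAA that starts before it. Only the sense strand of the 3′UTR was searched, with overlapping matches counted.

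**Figure D3:**
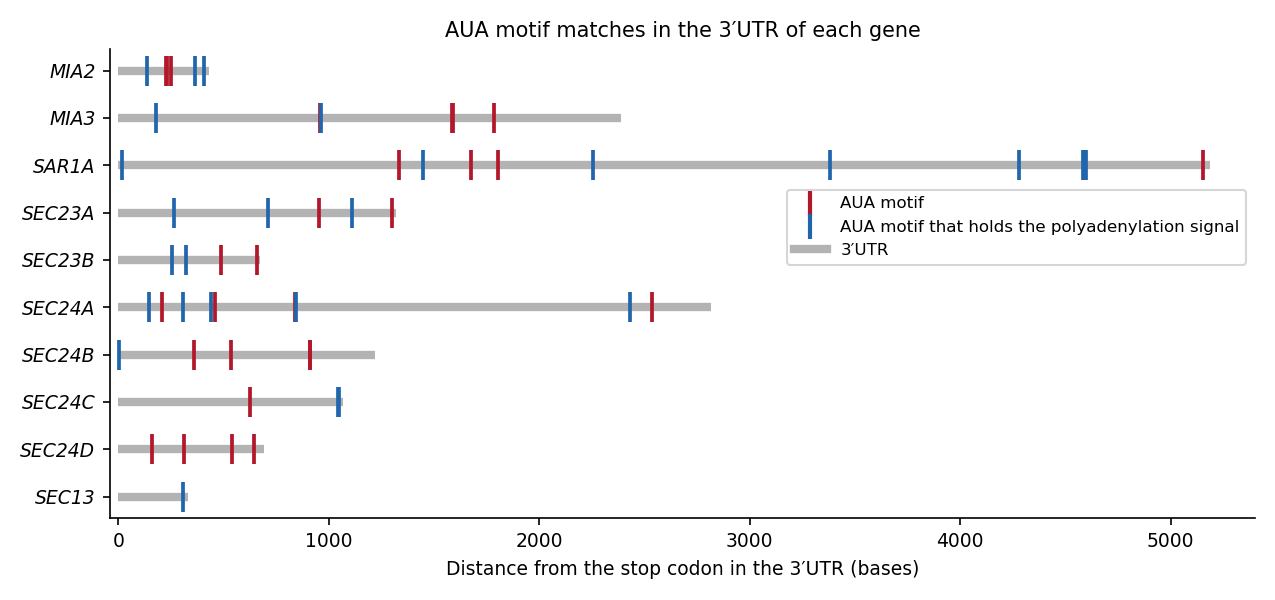
AUA element matches (ticks) along the 3′UTR (grey bar, to scale) of each gene, by distance from the stop codon in bases. Blue ticks are matches that also hold the polyadenylation signal, 28 of 56, and red ticks are the others. *MIA2* has 6 matches in 430 bases, and *SAR1A* has 13 spread over 5187 bases.

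Matches rise in number with 3′UTR length, so each gene was set beside the listed genes whose 3′UTR is within 20% of its own length. With its representative 3′UTR, *MIA2* held more matches than most of them. The study had chosen *MIA2* by RBMS3 binding in its 3′UTR and reports the element as enriched at binding sites. The rank of *MIA2* is therefore not independent of that choice. Of 958 genes with a 3′UTR of similar length, 72.2% held a match, the median was 1 match, and 2.19% held 6 or more. At 13.95 matches per 1000 bases, *MIA2* lay at percentile 97.8 of all listed 3′UTRs, and by A+U content at percentile 98.7, so a dense element and an A/U-rich sequence went together. Their parts in the count were not tested. The 958 genes were matched on length alone, and their median A+U content was 52.6%, against 74.0% in *MIA2*. The other genes were nearer to their peers. At least as many matches were held by 18.4% of the genes like *SEC23B* in length, 18.8% for *SEC24D*, 28.3% for *SEC24B*, 31.2% for *SEC23A* and 37.5% for *SEC24A*. The shares were 45.5% for *SEC24C*, 48.0% for *SAR1A*, 50.5% for *MIA3* and 66.6% for *SEC13*. *MIA3*, the paralog of *MIA2*, thus had the 6 matches that are also the median of the 1723 genes of its 3′UTR length.

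**Figure D4:**
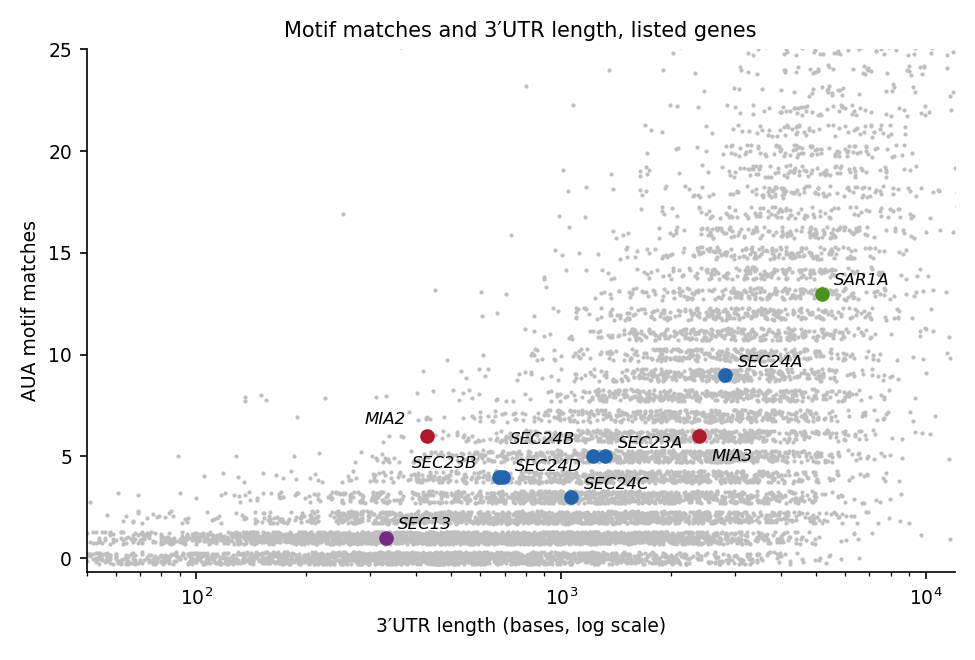
Number of AUA element matches against 3′UTR length (log axis, in bases) for the listed genes (grey, with small vertical scatter added; genes beyond the axes are not drawn) and the 10 genes (coloured as in the plot of levels). *MIA2*, with 6 matches in 430 bases, lies above most genes of its length, while *MIA3* and *SAR1A* lie amid theirs.

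The reporter site of *MIA2* was placed in this map. The longest exact run shared by the printed reporter sequence, as read from page images, and the 3′UTR spans 64 bases on the plus strand of chr14:39350596-39350659. It begins at base 332 after the stop codon, ends 35 bases before the end of the transcript and has 75.0% A+U. It holds 1 of the 6 matches, the one from base 362, which carries AATAAA. The pair of TTATATA matches from bases 227 and 250 and the match nearest the end of the transcript lie outside it. The choice of transcript also matters here. In the longest annotated 3′UTR of a protein-coding *MIA2* transcript, which has 1561 bases, 2 matches were found. That is 1.28 per 1000 bases, at percentile 30.3 of all listed 3′UTRs, and 74.5% of 1701 genes of that 3′UTR length held at least as many. The high density therefore belongs to the 430-base 3′UTR of the representative transcript and is lost with the longest one. With only 2 matches, the longest 3′UTR does not contain the whole 430-base one. The sites shown above, that of the reporter included, need not lie in it.

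How far a value can be assigned to its gene depends on sequence shared with other genes. Runs of 31 bases of each representative transcript were looked up in all other GENCODE genes. *MIA3*, *SEC23A*, *SEC23B*, *SEC24C* and *SEC24D* shared none. In *MIA2*, 22.4% of 4839 runs also occur in another gene, all of them in 14 genes of the CTAGE family. The largest overlap was with *CTAGE1*, at 540 runs. None of the 14 has a row in the table. The first 2100 bases of the transcript share nothing. From base 2088 on, the long transcript is the same as the transcript of the 809-residue form, so all of the overlap lies in the part that these 2 forms have in common. Within the coding sequence the share was 23.9% and within the 3′UTR 17.1%.

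*SAR1A* shared 7.15% of its runs, in 2 kinds of place. In the coding sequence 16.1% were shared, and its pseudogenes *SAR1AP1*, *SAR1AP3* and *SAR1AP4* held 51, 36 and 13 runs. In the 3′UTR 6.26% were shared, and over the whole transcript the runs were found in 3426 genes, of which 2339 have a row in the table. *SEC24B* shared 2.18%, all in the 3′UTR and with 490 genes, of which 334 have a row. *SEC13* shared 30 runs with its pseudogene *SEC13P1*, and *SEC24A* shared 1 run with *SEC24AP1*. No run was shared between the coding sequences of *SEC23A* and *SEC23B*, between any pair of SEC24 genes, between *MIA2* and *MIA3* or between *SAR1A* and *SAR1B*. The representative transcript of each of the 10 genes was also set against all annotated transcripts of the others. In this search 1 overlap was found, where 22 runs of *SAR1A* also occur in a transcript of *SEC23A*.

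**Figure D5:**
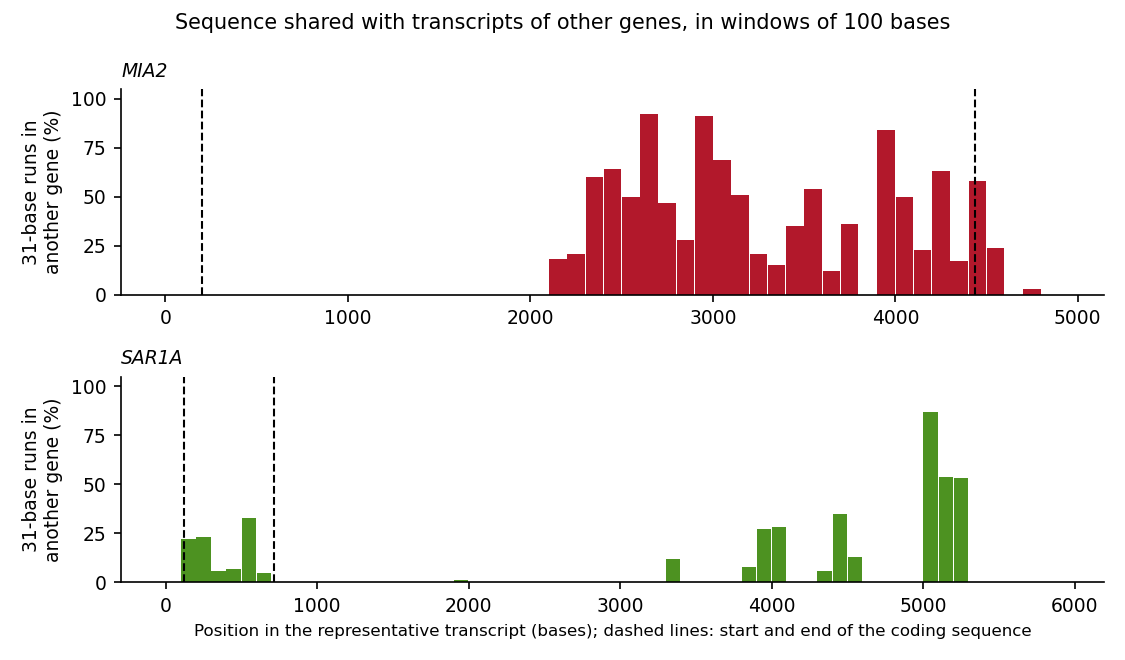
Share of 31-base runs, in percent per window of 100 bases, that also occur in a transcript of another gene, along the representative transcripts of *MIA2* (top) and *SAR1A* (bottom). Dashed lines mark the coding sequence. *MIA2* shares nothing before 2100 bases, and *SAR1A* shares sequence in its coding part and in patches of its 3′UTR.

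Some of the 10 genes lie near each other. *SEC23A* and *MIA2* are on chromosome 14, on opposite strands and 120584 bases apart, with 3 listed genes between them. *SEC24C* and *SAR1A* are 3573848 bases apart on chromosome 10, and *SEC24B* and *SEC24D* are 9181926 bases apart on chromosome 4. The levels per 1000 bases of transcript of the nearest pair were 363 for *SEC23A* and 115 for *MIA2*.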

How the data were processed

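Total RNA of MDA-MB-231 cells was extracted with a phenol-based reagent and made into stranded libraries from a small input with depletion of ribosomal cDNA, 6 in all. The submitters' processing notes name Salmon, DESeq2 and the build hg38; the versions and the annotation behind this table are not given in the sources used here, since the study's methods state them only for other assays. The authors deposited 1 table with a signal per gene, the mean of counts divided by size factors, over libraries and not per length. The depth per library is unknown, so no interval is given. The table's 5 columns of the authors' comparison (a log2 fold change, its standard error, a statistic, a p-value and its adjusted value) were not used, the count test planned for values per library was not run, and no test was made.

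GENCODE release 44 (GRCh38) supplied coordinates, lengths and sequences for 15829 of the Ensembl identifiers, and 88 had no entry. Each gene was represented by its MANE Select transcript, which all 10 genes have, or failing that by the canonical transcript of Ensembl or the one with most coding bases. Motifs were sought where the 3′UTR had 7 bases or more. Coding sequences were aligned end to end, with identity over aligned bases. The functions for the motif, for positions and for the longest run shared with the reporter sequence were tested on simulated data. The lookup of runs shared with other genes was not tested in this way. Named genes are the 10 members, *RBMS3*, and the highest and lowest of lists of pathway genes and markers, with partners and paralogs added. Members and lists were chosen with earlier results of these data known. Alternatives were the length, the genes ranked against, the 3′UTR and the motif. Python 3.11.15 with numpy 2.4.6, pandas 2.3.3, Biopython 1.88 and matplotlib 3.10.9 was used.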

Additional observations from a re-analysis of the deposited data

How the results depend on the processing

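The median level of the 10 genes, 298 per 1000 bases of the representative transcript, was 296 with the longest annotated transcript and 479 with the coding sequence. Added after seeing the data, it was 284 without *SEC13*. It was 435 when 7 genes were given the transcript with most coding bases among those with another start codon. The other 3, which have none of sufficient length, kept their own. For *SEC23B* and *SAR1A* these were short transcripts of 834 and 672 bases, at 1630 and 2739 per 1000 bases. The median percentile of the 10 genes by mean normalized count was 80.6 among all rows and 76.5 among coding genes. All 10 genes had a match to the AUA element, and all 10 did with the longest 3′UTR and with AATAAA in its place. The 56 matches became 52 with the longest 3′UTR and 32 with AATAAA, which is a different pattern. In *MIA2* they fell from 6 to 2 with the longest 3′UTR. The median of 5 matches per gene is 3.49 per 1000 bases of 3′UTR. No paired analysis was possible because the value used is 1 mean per gene and carries no replicate. For the same reason another normalization, a filter on low counts, leaving out a library and each hairpin alone were not run. The protein identity of paralogs was not run, and coding sequences were compared instead, a choice made after seeing the data.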
